A study of Homo sapiens with 15 samples.

Results

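Translation initiation and elongation factors were compared between 5 groups of RNA sequencing libraries from the human lines HEK293T and HuCCT1. The genes were taken by name and type: every protein-coding gene whose symbol opens with EIF or EEF and a digit and that stands in both count tables, without EIF4A3, EEF1B2 and the eIF2 kinases. That gave 61 genes, out of 62703 in the HEK293T table and 35595 in the HuCCT1 table. HEK293T is an embryonic kidney line that carries a viral large T antigen, and HuCCT1 was derived from a cholangiocarcinoma, a tumour of the bile ducts. The groups were HEK293T SNRPD2KO, HEK293T PUS7KO and HEK293T Ctrl, and HuCCT1 SNRPD2KO and HuCCT1 Ctrl, with 3 libraries each and 15 in all. The knockouts were made with CRISPR-Cas9, and the labels name no other allele or agent and do not say whether a knockout is a clone or a pool, or what Ctrl cells received. The SNRPD2 product is 1 of the Sm proteins that ring the small nuclear RNAs of the spliceosome. PUS7 is a pseudouridine synthase, which isomerises uridine within RNA chains. The labels do not say whether replicates came from separate cultures, so p-values measure the spread between these libraries, which may be technical.

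Initiation factors bring the small ribosomal subunit, the initiator tRNA and the start codon of a messenger RNA together. The eIF2 complex carries the initiator tRNA with GTP, and eIF2B recharges eIF2 with GTP after each round, a step that stress kinases slow by phosphorylating eIF2. The eIF4F complex of the cap-binding protein eIF4E, the scaffold eIF4G and the helicase eIF4A recruits the message, and the eIF4E-binding proteins hold eIF4E back until mTOR signalling phosphorylates them. Elongation factor eEF1A then delivers each aminoacyl tRNA, and eEF2 moves the ribosome along.

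Total counts ran from 7944276 to 11270267 in HEK293T libraries and from 13776166 to 16795618 in HuCCT1 libraries. HEK293T Ctrl libraries held 7944276 to 9202622 counts, with 29551 to 30073 genes that had a count. The HEK293T libraries with a knockout label held 10022912 to 11270267 counts, with 24947 to 27460 such genes. In HuCCT1 the ranges of the groups overlapped. The part of depth and of genes counted in the results below was not tested. The 61 genes took 2.49% to 3.02% of all counts in HEK293T and 1.91% to 2.09% in HuCCT1. The tables also differed in make-up, with 61.7% to 68.8% of counts in protein-coding genes in HEK293T libraries and 93.6% to 95.3% in HuCCT1 libraries. SNRPD2 went against its label in both lines: it stood at 309, 286 and 246 CPM (counts scaled to the library total by TMM) in HEK293T SNRPD2KO libraries, against 196, 169 and 182 in Ctrl. HuCCT1 libraries held 260, 286 and 319 CPM with the SNRPD2KO label, against 160, 146 and 157 in Ctrl. SNRPD2 was also higher in PUS7KO libraries than in HEK293T Ctrl, at 266, 236 and 280 CPM, a log2 fold change of 0.52 (edgeR adjusted p = 0.00034), and SNRPD2KO against PUS7KO did not pass, at 0.11 (edgeR adjusted p = 0.56). PUS7 was lower in the libraries labelled with its knockout, at 13.7, 18.1 and 16.3 CPM, against 26.5, 26.0 and 27.0 in Ctrl. Directions below are therefore those of the libraries labelled SNRPD2KO, whose SNRPD2 RNA was higher and not lower. The bile duct keratins KRT7 and KRT19 stood at 4490 to 5120 and at 1860 to 2200 CPM in HuCCT1, and were at or near 0 in HEK293T. The epithelial keratins KRT8 and KRT18 were present in both lines, at means of 181 and 98.8 CPM in HEK293T Ctrl and 2140 and 3060 in HuCCT1 Ctrl. The other epithelial markers, EPCAM, MUC1, SOX9 and CDH1, had means of 0.483 to 8.22 CPM in HEK293T Ctrl and 23.7 to 273 in HuCCT1 Ctrl. The neurofilament genes NEFL and NEFM, which HEK293T is known to express, were present there, while the kidney genes PAX2 and LHX1 were near 0. The other HEK293T markers, VIM and CDH2, were present in both lines. VIM had a mean of 779 CPM in HEK293T Ctrl and 169 in HuCCT1 Ctrl, and CDH2 of 94.3 and 171. NEFL and NEFM were also higher in SNRPD2KO (0.76 and 1.20 on the log2 scale) and in PUS7KO (1.04 and 1.76) than in Ctrl by edgeR's test, and of 4 tested HEK293T markers 2 rose and 2 fell in each. Their part in the results below was not tested. Blood and endothelial markers were at or near 0 in both lines, and the liver marker ALB in HEK293T.

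Of the 61 genes, 56 passed the filter on low counts in HEK293T and 58 in HuCCT1. EIF5A, EIF3K, EIF4E1B, EIF4EBP3 and the Y-linked EIF1AY, whose levels are not given here, were not tested in HEK293T, and EIF3K, EIF4E1B and EIF4EBP3 were not tested in HuCCT1. EIF5A, the factor that eases the ribosome past proline stretches, was listed at 0 in all 9 HEK293T libraries, against 26.7, 23.1 and 20.9 CPM in HuCCT1 SNRPD2KO and 42.2, 47.3 and 44.7 in HuCCT1 Ctrl. EIF3K, an eIF3 subunit, was listed at 0 or close to it in both lines. The helicase gene EIF4A1 and EEF1G, outside the 61, were also listed at 0 in all 9 HEK293T libraries. Such zeros are given as listed and are not read as absence of the RNA, which was not tested.

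The 56 tested genes moved in both directions when HEK293T SNRPD2KO libraries were compared with Ctrl. By edgeR's quasi-likelihood test, 23 rose and 16 fell at an adjusted p under 0.05 (Benjamini-Hochberg over all genes), and 17 did not pass. That is 69.6% called, where 53.3% of all 15882 genes tested were called, 26.9% higher and 26.4% lower. The 23 higher genes were led by the eIF4E-binding protein gene EIF4EBP1, the tRNA-delivery factor gene EIF2D, the eEF2 methyltransferase gene EEF2KMT and the eIF3 subunit gene EIF3CL, and the 16 lower ones by EIF5, EIF5B, EEF1AKMT2 and EIF4ENIF1. The median log2 fold change was 0.16 over the 56 genes and 0.02 over all genes. The groups did not overlap for 44 of the 56 genes, against 59.5% of all genes. Without the filter on low counts 27 rose and 12 fell, or 69.2% higher among those called, against 59.0% with it. The counts were 22 and 16 without EEF1D, EIF3C and EIF3CL, whose libraries stood apart from their groups as described below.

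HEK293T PUS7KO libraries differed from the same Ctrl libraries in 35 of the 56 genes. Of these, 24 rose and 11 fell by the same edgeR test, or 62.5% called, where 49.4% of all genes were called, 25.6% higher and 23.8% lower. EIF4EBP1, EIF2D, EEF2KMT and EIF2B3 led the higher genes, and EIF5, EIF4G2, EIF4ENIF1 and EIF5AL1 the lower ones. The EIF5AL1 call ended when HEK293T PUS7KO replicate 2 was left out, at -0.38 with an edgeR adjusted p of 0.069. Without the filter on low counts 6 genes fell. The median was 0.19 over the 56 genes and 0.01 over all genes, and the groups did not overlap for 35 genes, against 57.2% of all genes. The SNRPD2KO and PUS7KO comparisons share their 3 Ctrl libraries, so their values are given side by side and their likeness is not counted as a result.

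Set directly against PUS7KO, HEK293T SNRPD2KO differed in 2 of the 56 genes, or 3.57%, where 4.77% of all genes were called, 1.57% higher and 3.2% lower. Both were higher in SNRPD2KO. EIF4G1, the main eIF4F scaffold, stood at 373, 385 and 372 CPM in SNRPD2KO and 314, 287 and 295 in PUS7KO, a log2 fold change of 0.33 ± 0.08 (edgeR adjusted p = 0.026). EIF3B, a core subunit of eIF3, stood at 372, 362 and 346 CPM in SNRPD2KO and 301, 278 and 306 in PUS7KO, a log2 fold change of 0.29 ± 0.08 (edgeR adjusted p = 0.045). The SNRPD2KO and PUS7KO libraries did not overlap for either gene, nor for 13 of the 56 genes in all, against 25.2% of all genes. Both calls rested on few libraries. The EIF4G1 call ended when any of 4 libraries was left out in turn (HEK293T SNRPD2KO replicate 1 and 2 and HEK293T PUS7KO replicate 2 and 3), at 0.31 to 0.35 with an edgeR adjusted p of 0.051 to 0.13. The EIF3B call ended when any of 7 libraries was left out in turn (HEK293T SNRPD2KO replicate 1 and 2, HEK293T PUS7KO replicate 1, 2 and 3 and HEK293T Ctrl replicate 1 and 2), at 0.25 to 0.32 with an edgeR adjusted p of 0.054 to 0.2. With the trend of the counts with GC content removed, both calls ended. The other 54 genes did not pass, with log2 fold changes from -0.62 to 0.43. These counts depended on single libraries. Protein-coding genes took 67.2% of counts in SNRPD2KO replicate 3, against 61.7% in the other SNRPD2KO libraries. They took 68.8% in PUS7KO replicate 2, against 63.6% in the other PUS7KO libraries. Without that SNRPD2KO library 5 genes were higher and 3 lower, where 11.4% of all genes tested were called. Without that PUS7KO library 0 were higher and 0 lower, where 0.192% of all genes were called.

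In HuCCT1 the balance of directions was the other way. Of the 58 genes tested, 13 rose and 29 fell in SNRPD2KO libraries against Ctrl, and 16 did not pass. That is 72.4% called by edgeR's quasi-likelihood test, where 57.2% of all 15007 genes were called, 28.8% higher and 28.4% lower. EIF4G3, EIF2D, EEF1A2 and EIF5B led the higher genes, and EEF1AKMT4, EIF2S3, EIF1 and EIF2S3B the lower ones. The median log2 fold change was -0.28 over the 58 genes and 0 over all genes, and the groups did not overlap for 42 genes, against 63.5% of all genes.

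**Figure D1:**
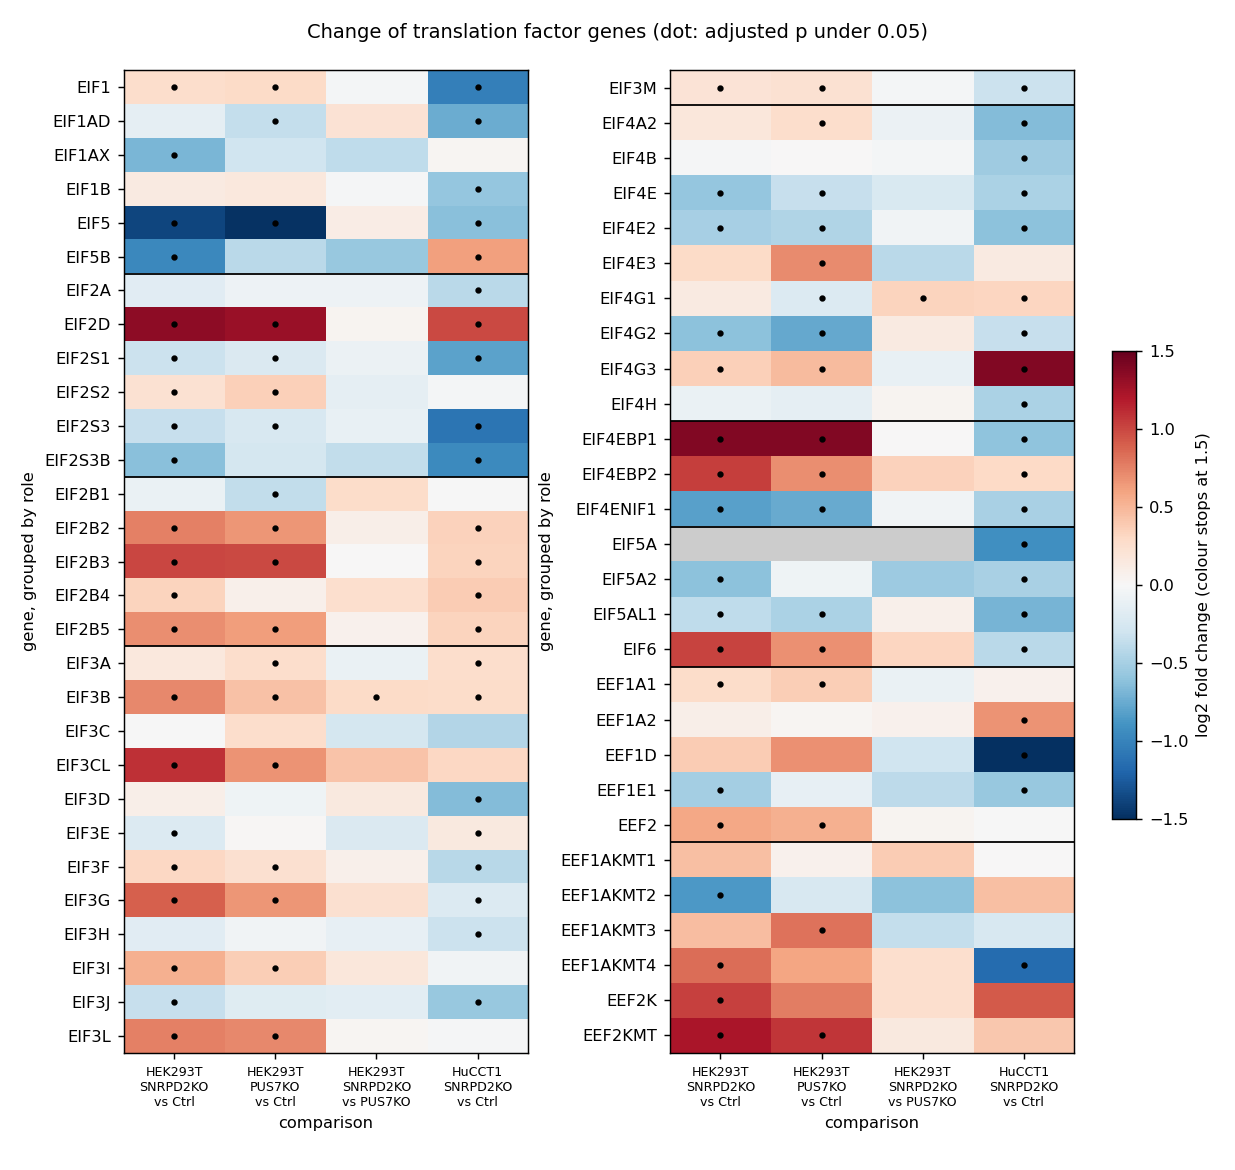
Log2 fold change (colour) of each tested translation factor gene (rows, grouped by role) in the 4 comparisons (columns), with a dot where edgeR's adjusted p was under 0.05 and grey where a gene was not tested. Both HEK293T columns against Ctrl hold more red than blue cells with a dot (23 against 16, and 24 against 11), the HuCCT1 column more blue than red (29 against 13), and the SNRPD2KO against PUS7KO column holds 2 dots.

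Among the factors that scan for and select the start codon, EIF5 fell in every comparison with Ctrl. EIF5 makes eIF2 hydrolyse its GTP at the start codon. It stood at 102, 97.1 and 104 CPM in HEK293T SNRPD2KO and 88, 116 and 77.3 in PUS7KO, against 239.7, 281 and 267 in Ctrl. HuCCT1 libraries gave 251, 249 and 226 CPM in SNRPD2KO, against 382, 377 and 367 in Ctrl. Every library with a knockout label lay below every Ctrl library of its line. The log2 fold changes were -1.38 ± 0.12 in SNRPD2KO (edgeR adjusted p = 9.4e-08) and -1.48 ± 0.12 in PUS7KO (edgeR adjusted p = 6.5e-08). In HuCCT1 the change was -0.63 ± 0.06 (edgeR adjusted p = 2.7e-06).

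EIF1, which guards the fidelity of start codon choice, went opposite ways in the 2 lines. It stood at 631, 608 and 628 CPM in HEK293T SNRPD2KO and 639, 627 and 646 in PUS7KO, against 541, 503 and 519 in Ctrl. In HuCCT1 SNRPD2KO it stood at 965, 1042 and 1026 CPM, against 2016, 2065 and 2061 in Ctrl. The HuCCT1 groups were far apart, and the HEK293T groups close but without overlap. EIF1 rose by 0.26 ± 0.07 and 0.29 ± 0.07 on the log2 scale in HEK293T SNRPD2KO and PUS7KO (edgeR adjusted p = 0.0063 and 0.003). In HuCCT1 its change was -1.02 ± 0.05 (edgeR adjusted p = 4.3e-08). EIF5B, the GTPase that joins the large subunit, went the other way in SNRPD2KO. It stood at 11.8, 10.9 and 17.3 CPM in HEK293T SNRPD2KO and 19.9, 23.3 and 16.6 in PUS7KO, against 22.4, 26.8 and 29.8 in Ctrl. The HuCCT1 values were 142, 147 and 144 CPM in SNRPD2KO, against 94, 90.3 and 97 in Ctrl. EIF5B fell in HEK293T SNRPD2KO, with -0.97 ± 0.17 (edgeR adjusted p = 0.00017), and did not pass in PUS7KO, at -0.40 ± 0.16 (edgeR adjusted p = 0.055), where the highest library, at 23.3 CPM, lay above the lowest Ctrl library. In HuCCT1 it rose, at 0.62 ± 0.05 (edgeR adjusted p = 2.6e-06).

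The remaining genes grouped here under start codon selection were EIF1B, EIF1AD and EIF1AX, and a role of EIF1AD in that step was not tested. EIF1B, a close relative of EIF1, stood at 20.2, 23.3 and 20.6 CPM in HuCCT1 SNRPD2KO, against 32.3, 32.7 and 30.7 in Ctrl. It did not pass in HEK293T and changed by -0.58 ± 0.08 in HuCCT1 (edgeR adjusted p = 0.00013). EIF1AD, which resembles eIF1A, fell in HuCCT1, to 122, 122 and 128 CPM in SNRPD2KO, against 214, 204 and 209 in Ctrl (edgeR adjusted p = 4.4e-07). It also fell in PUS7KO, to 26.55 to 29.7 CPM, against 36.14 to 37.11 in HEK293T Ctrl, a call that ended with no filter on low counts. In HEK293T SNRPD2KO it did not pass, at -0.14. EIF1AX, the eIF1A of the X chromosome, whose counts are uncertain because near copies exist, fell in HEK293T SNRPD2KO, with -0.68 ± 0.17 (edgeR adjusted p = 0.003), a call that ended with the GC trend removed, at -0.07 (edgeR adjusted p = 0.68). In HuCCT1 it stood at 73.9, 44.9 and 44.8 CPM in SNRPD2KO, against 53.9, 50.2 and 56.8 in Ctrl. SNRPD2KO replicate 1 there was 1.65-fold above the next library. With that library the change was 0.03 ± 0.16 (edgeR adjusted p = 0.9), and without it -0.25 (edgeR adjusted p = 0.01).

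Among the carriers of the initiator tRNA, EIF2D rose in all 3 comparisons with Ctrl. EIF2D delivers tRNA to the ribosome outside the eIF2 route and takes part in ribosome recycling. It stood at 127, 115 and 112 CPM in HEK293T SNRPD2KO and 123, 102 and 119 in PUS7KO, against 49.2, 46.2 and 44.8 in Ctrl. HuCCT1 libraries gave 48.1, 50 and 52.9 CPM in SNRPD2KO, against 25.2, 24.7 and 26 in Ctrl. The groups were far apart in both lines. The log2 fold changes were 1.34 ± 0.09 in SNRPD2KO (edgeR adjusted p = 1.2e-08), 1.29 ± 0.09 in PUS7KO (edgeR adjusted p = 2.4e-08) and 0.99 ± 0.07 in HuCCT1 (edgeR adjusted p = 4.6e-07).

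The eIF2 complex itself did not move as a unit. EIF2S3, its GTP-binding gamma subunit, stood at 386, 394 and 383 CPM in HEK293T SNRPD2KO and 410.3, 419 and 429 in PUS7KO, against 468, 512 and 506 in Ctrl. The HuCCT1 values were 208, 225 and 212 CPM in SNRPD2KO, against 442, 460.3 and 478 in Ctrl. It fell in all 3, by a small step in HEK293T and by more in HuCCT1, with log2 fold changes of -0.35 ± 0.07, -0.24 ± 0.07 and -1.10 ± 0.05 (edgeR adjusted p = 0.00063, 0.011 and 5.5e-08). The EIF2S3 call in PUS7KO ended when any of 2 libraries was left out in turn (HEK293T PUS7KO replicate 1 and HEK293T Ctrl replicate 2), at -0.21 with an edgeR adjusted p of 0.058 to 0.067. EIF2S1, the alpha subunit that stress kinases phosphorylate, fell as well, with -0.32 ± 0.08 in HEK293T SNRPD2KO, -0.22 ± 0.08 in PUS7KO and -0.80 ± 0.05 in HuCCT1 (edgeR adjusted p = 0.0031, 0.029 and 3.6e-07). The EIF2S1 call in PUS7KO ended when any of 7 libraries was left out in turn (HEK293T SNRPD2KO replicate 1 and 2, HEK293T PUS7KO replicate 1, 2 and 3 and HEK293T Ctrl replicate 1 and 2), at -0.23 to -0.18 with an edgeR adjusted p of 0.052 to 0.14. With the GC trend removed, the EIF2S1 change in HEK293T SNRPD2KO was 0.04. EIF2S2, the beta subunit, rose in PUS7KO, by 0.36 ± 0.09 (edgeR adjusted p = 0.0023), and did not pass in HuCCT1, at -0.03 ± 0.08. In HEK293T SNRPD2KO it rose by 0.23 ± 0.09 (edgeR adjusted p = 0.033), a call that ended when any of 4 libraries was left out in turn (HEK293T SNRPD2KO replicate 2 and 3 and HEK293T Ctrl replicate 1 and 3), at 0.18 to 0.26 with an edgeR adjusted p of 0.052 to 0.14. EIF2S3B is a near copy of EIF2S3, and how reads were shared between them is not given in the sources used here, so its values are uncertain. It stood at 8.95, 8.07 and 8.33 CPM in HuCCT1 SNRPD2KO, against 18.7, 13.8 and 16.9 in Ctrl, a change of -0.96 ± 0.13 (edgeR adjusted p = 7e-05). EIF2A, a non-canonical tRNA-binding factor, fell in HuCCT1, with -0.40 ± 0.06 (edgeR adjusted p = 0.00022).

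Of the 5 subunits of eIF2B, the exchange factor of eIF2, 4 rose and none fell in HEK293T SNRPD2KO, 3 rose and 1 fell in PUS7KO, and 4 rose and none fell in HuCCT1, by edgeR's quasi-likelihood test. Of all genes tested, 26.9% rose and 26.4% fell in HEK293T SNRPD2KO, 25.6% and 23.8% in PUS7KO, and 28.8% and 28.4% in HuCCT1. Of the calls in eIF2B, EIF2B4 in HEK293T SNRPD2KO and EIF2B3 in HuCCT1 rested on few libraries, as given below, and the EIF2B4 call in HEK293T SNRPD2KO also ended with the GC trend removed. EIF2B3, the gamma subunit, stood at 62.5, 65.1 and 60.1 CPM in SNRPD2KO and 59.5, 63.5 and 64.2 in PUS7KO, against 33, 30.1 and 30.8 in Ctrl. In HuCCT1 it stood at 24.1, 24.7 and 26.3 CPM in SNRPD2KO, against 22.6, 19.9 and 17.1 in Ctrl. The HEK293T groups were about 30 CPM apart, and the HuCCT1 groups were close. The changes were 1.00 ± 0.09, 0.99 ± 0.09 and 0.33 ± 0.11 (edgeR adjusted p = 1e-07, 1.4e-07 and 0.02). The EIF2B3 call in HuCCT1 ended when any of 3 libraries was left out in turn (HuCCT1 SNRPD2KO replicate 3 and HuCCT1 Ctrl replicate 2 and 3), at 0.23 to 0.33 with an edgeR adjusted p of 0.051 to 0.081. EIF2B2, the beta subunit, changed by 0.75 ± 0.10 in HEK293T SNRPD2KO, 0.66 ± 0.10 in PUS7KO and 0.34 ± 0.06 in HuCCT1 (edgeR adjusted p = 1.1e-05, 5.1e-05 and 0.00052). EIF2B5, the catalytic epsilon subunit, changed by 0.70 ± 0.11, 0.63 ± 0.11 and 0.33 ± 0.06 in the same order (edgeR adjusted p = 7.9e-05, 0.00026 and 0.00095). EIF2B4, the delta subunit, rose in HuCCT1, by 0.38 ± 0.07 (edgeR adjusted p = 0.00068), and by 0.33 ± 0.12 in HEK293T SNRPD2KO (edgeR adjusted p = 0.022), a call that ended when any of 3 libraries was left out in turn (HEK293T SNRPD2KO replicate 2 and HEK293T Ctrl replicate 1 and 2), at 0.26 to 0.34 with an edgeR adjusted p of 0.053 to 0.11. EIF2B1, the regulatory alpha subunit that senses phosphorylated eIF2, fell in PUS7KO, with -0.37 ± 0.08 (edgeR adjusted p = 0.0018), and did not pass in the other 2 comparisons with Ctrl.

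**Figure D2:**
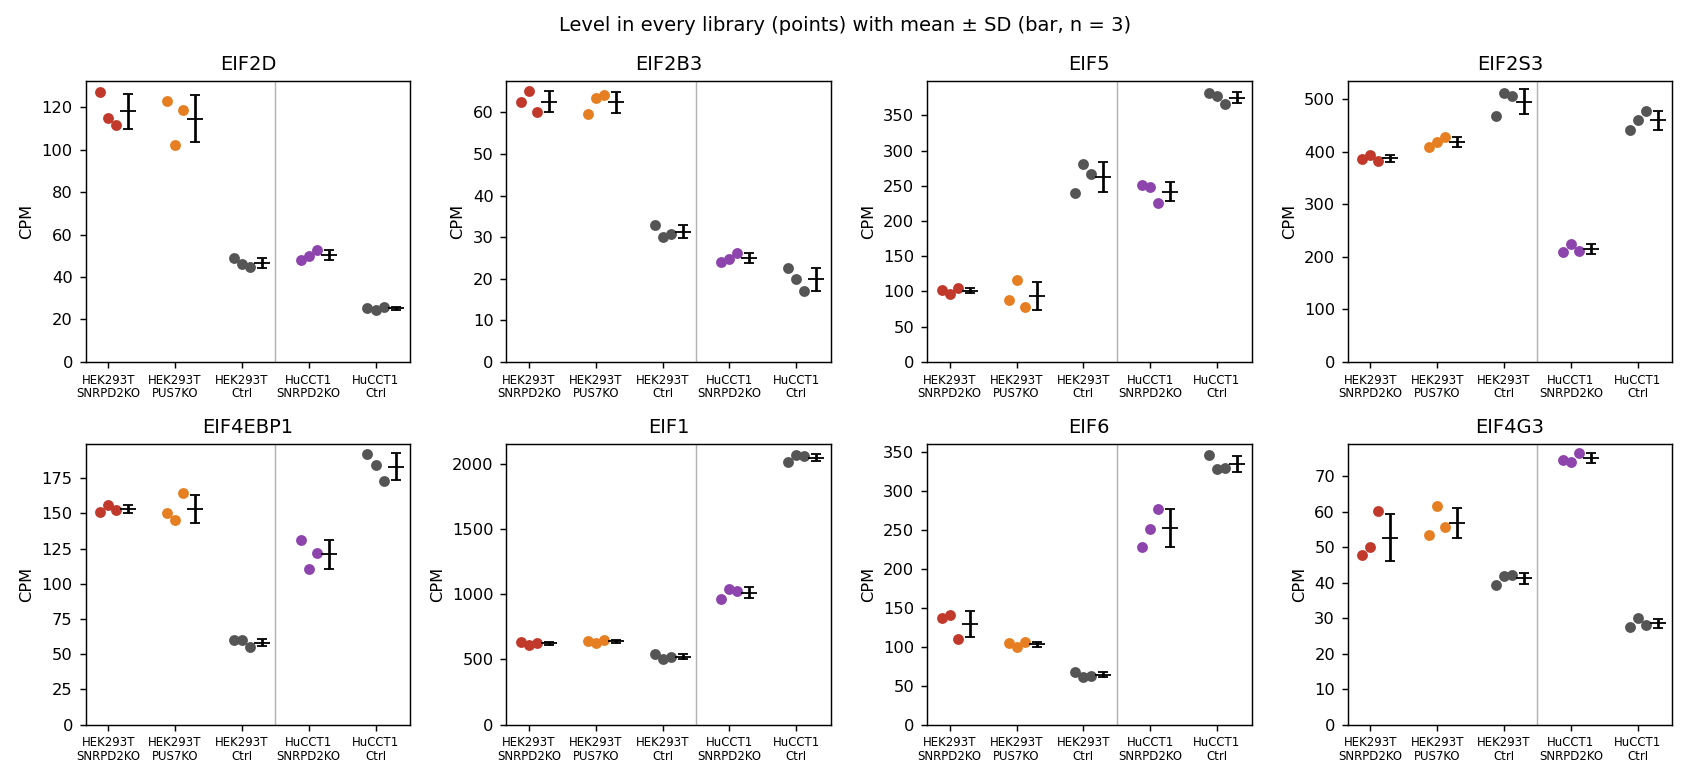
CPM of 8 genes in every library (points), with the mean and SD of each group beside them (n = 3), for HEK293T SNRPD2KO, PUS7KO and Ctrl and for HuCCT1 SNRPD2KO and Ctrl. EIF2D lies at 112 to 127 CPM in HEK293T SNRPD2KO against 44.8 to 49.2 in Ctrl, and EIF1 at 965 to 1042 CPM in HuCCT1 SNRPD2KO against 2016 to 2065 in Ctrl.

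The eIF3 complex is the largest initiation factor and the platform that holds the small subunit to the message. Of its 13 tested genes, 7 rose and 2 fell in HEK293T SNRPD2KO and 8 rose and none fell in PUS7KO, while 3 rose and 6 fell in HuCCT1. Of all genes, 53.3%, 49.4% and 57.2% were called in these comparisons, about evenly split between directions. In PUS7KO the calls of EIF3A, EIF3F, EIF3M and EIF3CL each ended when some library was left out. EIF3A, at 0.26, lost its call without any of 2 libraries (edgeR adjusted p = 0.052 to 0.067). EIF3F (0.24) and EIF3M (0.23) did so for any of 4 libraries (edgeR adjusted p = 0.053 to 0.11 and 0.063 to 0.091). The EIF3M call in HEK293T SNRPD2KO and that of EIF3CL in PUS7KO are taken up below. EIF3G, an RNA-binding subunit, stood at 256, 256 and 215 CPM in HEK293T SNRPD2KO and 206, 196 and 212 in PUS7KO, against 142, 127 and 121 in Ctrl. HuCCT1 libraries gave 226, 207 and 229 CPM in SNRPD2KO, against 258, 251 and 257 in Ctrl. Its groups did not overlap in either line, and the directions differed. The changes were 0.90 ± 0.09 and 0.66 ± 0.09 in HEK293T and -0.21 ± 0.05 in HuCCT1 (edgeR adjusted p = 5e-07, 1.7e-05 and 0.0062). EIF3L rose by 0.75 ± 0.08 in SNRPD2KO and 0.72 ± 0.08 in PUS7KO (edgeR adjusted p = 8.7e-07 and 1.7e-06), and was -0.02 ± 0.06 in HuCCT1, which did not pass. EIF3I rose by 0.53 ± 0.09 and 0.37 ± 0.09 in the HEK293T groups (edgeR adjusted p = 7.2e-05 and 0.0021), and did not pass in HuCCT1, at -0.05 ± 0.06. EIF3B rose in all 3, by 0.72 ± 0.08, 0.44 ± 0.08 and 0.27 ± 0.05 (edgeR adjusted p = 1.2e-06, 0.00022 and 0.00066). EIF3D, the subunit that can bind the cap, did not pass in HEK293T and fell in HuCCT1, to 354, 324 and 349.5 CPM in SNRPD2KO, against 531, 548 and 528 in Ctrl (edgeR adjusted p = 1.4e-06). EIF3F, one of the MPN-domain subunits, rose by 0.31 ± 0.08 in HEK293T SNRPD2KO and fell in HuCCT1, at -0.42 ± 0.05 (edgeR adjusted p = 0.0042 and 3.8e-05). EIF3J, a loosely bound subunit, fell in HuCCT1, with -0.57 ± 0.07 (edgeR adjusted p = 3.6e-05). In HEK293T SNRPD2KO its change was -0.34 ± 0.12 (edgeR adjusted p = 0.022), a call that ended when any of 4 libraries was left out in turn (HEK293T SNRPD2KO replicate 1 and 2 and HEK293T Ctrl replicate 2 and 3), at -0.33 to -0.25 with an edgeR adjusted p of 0.064 to 0.12, and the value was 0.05 with the GC trend removed. EIF3E, another core subunit, moved by small steps, with -0.20 ± 0.08 in HEK293T SNRPD2KO and 0.15 ± 0.06 in HuCCT1 (edgeR adjusted p = 0.037 and 0.041). The EIF3E call in HEK293T ended when any of 8 libraries was left out in turn (HEK293T SNRPD2KO replicate 1, 2 and 3, HEK293T PUS7KO replicate 1 and 3 and HEK293T Ctrl replicate 1, 2 and 3), at -0.22 to -0.17 with an edgeR adjusted p of 0.052 to 0.14. The EIF3E call in HuCCT1 ended when any of 4 libraries was left out in turn (HuCCT1 SNRPD2KO replicate 1 and 3 and HuCCT1 Ctrl replicate 1 and 2), at 0.12 to 0.15 with an edgeR adjusted p of 0.06 to 0.16. EIF3E was higher in HEK293T SNRPD2KO with the GC trend removed, at 0.26 (edgeR adjusted p = 0.0044), and did not pass in HuCCT1, at 0.03 (edgeR adjusted p = 0.72), so its direction in HEK293T depends on that step.

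Among the cap-binding factors, the eIF4G scaffolds moved apart. EIF4G3, the least abundant of the 3, stood at 74.5, 74 and 76.7 CPM in HuCCT1 SNRPD2KO, against 27.6, 30 and 28.1 in Ctrl. In HEK293T it stood at 47.9, 50.2 and 60.1 CPM in SNRPD2KO and 53.3, 61.5 and 55.7 in PUS7KO, against 39.2, 42 and 42.3 in Ctrl. The HuCCT1 groups were more than 40 CPM apart. EIF4G3 rose by 1.39 ± 0.06 in HuCCT1 (edgeR adjusted p = 2.9e-08), and by 0.36 ± 0.10 and 0.47 ± 0.10 in HEK293T SNRPD2KO and PUS7KO (edgeR adjusted p = 0.0063 and 0.001). EIF4G2, also named DAP5, a scaffold without the eIF4E site, stood at 452, 452 and 443 CPM in HEK293T SNRPD2KO and 409, 451 and 359.7 in PUS7KO, against 649, 719.6 and 706 in Ctrl. Every knockout library lay below Ctrl in both lines, and EIF4G2 fell in all 3, with -0.62 ± 0.09, -0.77 ± 0.09 and -0.35 ± 0.05 (edgeR adjusted p = 1.5e-05, 2.4e-06 and 5.9e-05). EIF4G1, the main scaffold, stood at 1912, 1815 and 1801 CPM in HuCCT1 SNRPD2KO, against 1481, 1514 and 1446 in Ctrl. It rose there, by 0.32 ± 0.05 (edgeR adjusted p = 0.00016), and fell in PUS7KO, with -0.20 ± 0.08 (edgeR adjusted p = 0.038). The EIF4G1 call in PUS7KO ended when any of 7 libraries was left out in turn (HEK293T SNRPD2KO replicate 1 and 2, HEK293T PUS7KO replicate 1, 2 and 3 and HEK293T Ctrl replicate 2 and 3), at -0.22 to -0.14 with an edgeR adjusted p of 0.058 to 0.17. Taken per kilobase of exon, EIF4G3 made up 5.33% ± 0.677 of the 3 scaffolds in HEK293T SNRPD2KO and 6.66% ± 0.477 in PUS7KO, against 3.41% ± 0.0306 in Ctrl (SD, n = 3 each). In HuCCT1 its share was 2.5% ± 0.0961 in SNRPD2KO, against 1.04% ± 0.0306 in Ctrl. EIF4G2 fell to 26.3% ± 0.651 of them in HuCCT1 SNRPD2KO, against 36.5% ± 0.7 in Ctrl.

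EIF4E and its relative EIF4E2 fell in every comparison with Ctrl. EIF4E, the cap-binding protein, stood at 54.4, 50.6 and 50.7 CPM in HEK293T SNRPD2KO and 66.2, 60.9 and 54.9 in PUS7KO, against 77.7, 83.5 and 70.8 in Ctrl. The HuCCT1 values were 36, 40.1 and 42.3 CPM in SNRPD2KO, against 52.6, 57.3 and 54.2 in Ctrl. The groups did not overlap in either line. EIF4E changed by -0.58 ± 0.09, -0.35 ± 0.09 and -0.47 ± 0.07 (edgeR adjusted p = 6.3e-05, 0.0044 and 0.00022). With the GC trend removed its calls in both HEK293T comparisons with Ctrl ended. EIF4E2, which binds caps and represses messages, stood at 119.6, 139.8 and 134 CPM in HuCCT1 SNRPD2KO, against 206, 191 and 204 in Ctrl. Over the 3 comparisons EIF4E2 changed by -0.50 ± 0.12, -0.45 ± 0.12 and -0.61 ± 0.07 (edgeR adjusted p = 0.0016, 0.0038 and 1.4e-05). EIF4E3, another relative, was low in HuCCT1 and in HEK293T rose in PUS7KO, to 27.8, 36.4 and 30.5 CPM, against 19.2, 22.4 and 16.5 in Ctrl (edgeR adjusted p = 0.00064). The helicase EIF4A2 and its partners EIF4B and EIF4H fell in HuCCT1, with -0.65 ± 0.05, -0.53 ± 0.05 and -0.48 ± 0.07 (edgeR adjusted p = 1.1e-06, 3.2e-06 and 0.00016). Of these 3, only EIF4A2 passed in HEK293T, in PUS7KO, at 0.26 ± 0.09 (edgeR adjusted p = 0.021). The EIF4A2 call in PUS7KO ended when any of 2 libraries was left out in turn (HEK293T PUS7KO replicate 3 and HEK293T Ctrl replicate 3), at 0.20 with an edgeR adjusted p of 0.088 to 0.092.

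The eIF4E-binding proteins differed between the lines. EIF4EBP1, the best known mTOR-controlled repressor of eIF4E, stood at 151, 156 and 152 CPM in HEK293T SNRPD2KO and 150, 145 and 164 in PUS7KO, against 59.7, 59.8 and 55.2 in Ctrl. In HuCCT1 it stood at 131, 110.2 and 122 CPM in SNRPD2KO, against 192, 184 and 173 in Ctrl. It was more than 2-fold higher in both HEK293T groups and lower in HuCCT1, with no overlap. The changes were 1.39 ± 0.08 in HEK293T SNRPD2KO, 1.39 ± 0.08 in PUS7KO and -0.60 ± 0.07 in HuCCT1 (edgeR adjusted p = 2.5e-09, 3.2e-09 and 2.7e-05). EIF4EBP2, its relative, rose in all 3, to 86.7, 90 and 92.9 CPM in HEK293T SNRPD2KO and 67.2, 76.1 and 69.3 in PUS7KO, against 39.5, 39.6 and 51.9 in Ctrl. In HuCCT1 EIF4EBP2 rose by 0.30 ± 0.06 (edgeR adjusted p = 0.0012). Per kilobase, EIF4EBP2 made up 17.6% ± 1.06 of the pair in HuCCT1 SNRPD2KO, against 10.2% ± 1.09 in Ctrl (SD, n = 3 each). EIF4ENIF1, which carries eIF4E into the nucleus, stood at 15.6, 15 and 16.4 CPM in HEK293T SNRPD2KO and 17.1, 16.6 and 14.8 in PUS7KO, against 23.9, 27.4 and 30.9 in Ctrl. It fell in all 3, with -0.81 ± 0.12, -0.76 ± 0.12 and -0.49 ± 0.08 (edgeR adjusted p = 3.3e-05, 6.9e-05 and 0.00027).

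EIF6, which keeps the ribosomal subunits apart, also differed in direction. It stood at 136, 141 and 109.7 CPM in HEK293T SNRPD2KO and 104, 99.3 and 105 in PUS7KO, against 67.4, 61.5 and 62.6 in Ctrl. HuCCT1 libraries gave 228, 251 and 277 CPM in SNRPD2KO, against 346, 328 and 328 in Ctrl. No group overlapped its Ctrl. The changes were 1.01 ± 0.10, 0.69 ± 0.10 and -0.41 ± 0.07 (edgeR adjusted p = 2.7e-07, 1.9e-05 and 0.00041). In HuCCT1 all 4 tested genes of the group of EIF6 and the eIF5A family fell, and EIF5A changed by -0.92 ± 0.09 (edgeR adjusted p = 8.9e-06). EIF5AL1 is a near copy of EIF5A, so the counts of both are uncertain and their falls may not be separate. EIF5A was listed at 0 in HEK293T. The HuCCT1 table also holds 3 pseudogene rows named after EIF5A, with 254 to 528 counts per library in all. EIF5AL1 stood at 7.72, 9.68 and 8.79 CPM in HEK293T SNRPD2KO and 8.31, 7.51 and 8.95 in PUS7KO, against 11.5, 11.7 and 11 in Ctrl. Neither knockout group overlapped Ctrl. EIF5A2, the eIF5A paralogue of few tissues, stood at 4.61, 3.41 and 5.03 CPM in HEK293T SNRPD2KO and 6.3, 7.01 and 5.93 in PUS7KO, against 6.97, 7.19 and 6.02 in Ctrl. Its change was -0.62 ± 0.20 in SNRPD2KO and -0.49 ± 0.15 in HuCCT1 (edgeR adjusted p = 0.015 and 0.016). The EIF5A2 call in HEK293T SNRPD2KO ended when any of 2 libraries was left out in turn (HEK293T SNRPD2KO replicate 2 and HEK293T Ctrl replicate 2), at -0.56 to -0.46 with an edgeR adjusted p of 0.054 to 0.083. That change was 0.04 with the GC trend removed (edgeR adjusted p = 0.88). The EIF5A2 call in HuCCT1 ended when any of 3 libraries was left out in turn (HuCCT1 SNRPD2KO replicate 2 and 3 and HuCCT1 Ctrl replicate 3), at -0.44 to -0.32 with an edgeR adjusted p of 0.066 to 0.069.

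EEF1A1 and EEF2 were the most abundant of the 61 genes. EEF1A1 alone held 50.6% to 54.2% of the counts of the 61 genes in HEK293T and 25.9% to 32.7% in HuCCT1. It stood at 15290, 15540 and 13820 CPM in SNRPD2KO and 16550, 14930 and 16220 in PUS7KO, against 12780, 12200 and 11940 in HEK293T Ctrl. In HuCCT1 EEF1A1 stood at 5433, 6409 and 6227 CPM in SNRPD2KO, against 6054, 5494 and 5714 in Ctrl, and did not pass. In HEK293T the step was small and without overlap, with changes of 0.27 ± 0.08 and 0.37 ± 0.08 (edgeR adjusted p = 0.0074 and 0.00098). The HEK293T table also holds 49 pseudogene rows named after it, with 16017 to 28935 counts per library in all, and how reads were shared among them is not given in the sources used here. EEF2 rose in HEK293T, to 5775, 5826 and 5174 CPM in SNRPD2KO and 5657, 4928 and 5687 in PUS7KO, against 3873, 3625 and 3756 in Ctrl. EEF2 changed by 0.58 ± 0.08 and 0.53 ± 0.08 there (edgeR adjusted p = 2.1e-05 and 5.9e-05) and did not pass in HuCCT1, at -0.01 ± 0.06. EEF1A2, the eEF1A of muscle and neurons, was low in HuCCT1, at 6.65, 4.63 and 5.91 CPM in SNRPD2KO and 3.94, 3.05 and 3.81 in Ctrl. It rose there by 0.67 ± 0.20 (edgeR adjusted p = 0.013), a call that ended when HuCCT1 Ctrl replicate 2 was left out, at 0.56 with an edgeR adjusted p of 0.054. EEF1E1, a scaffold protein of the tRNA synthetase complex, fell in HuCCT1, with -0.57 ± 0.15 (edgeR adjusted p = 0.0073). In HEK293T SNRPD2KO it changed by -0.51 ± 0.15 (edgeR adjusted p = 0.007), a call that ended when HEK293T SNRPD2KO replicate 1 was left out, at -0.37 with an edgeR adjusted p of 0.052. The EEF1E1 change there was 0.00 with the GC trend removed (edgeR adjusted p = 0.99).

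The enzymes that modify elongation factors were scarce, under 21 CPM in every library. EEF2KMT, which methylates eEF2, stood at 13.9, 14.7 and 14.2 CPM in HEK293T SNRPD2KO and 12.4, 12.2 and 14.1 in PUS7KO, against 6.0, 5.48 and 6.82 in Ctrl. It was about 2-fold higher in both, at 1.23 ± 0.15 and 1.07 ± 0.15 (edgeR adjusted p = 2.9e-06 and 1.5e-05), and did not pass in HuCCT1, at 0.41 ± 0.22. EEF1AKMT4, a lysine methyltransferase of eEF1A, stood at 10.4, 6.59 and 9.47 CPM in HuCCT1 SNRPD2KO, against 20.3, 18.5 and 20.2 in Ctrl. These groups did not overlap, with a change of -1.16 ± 0.15 (edgeR adjusted p = 5.2e-05). In HEK293T it stood at 5.26, 4.73 and 2.56 CPM in SNRPD2KO, against 2.89, 1.94 and 2.05 in Ctrl, with overlap, and a change of 0.84 ± 0.33 (edgeR adjusted p = 0.043). The EEF1AKMT4 call in HEK293T ended when any of 4 libraries was left out in turn (HEK293T SNRPD2KO replicate 1 and 2 and HEK293T Ctrl replicate 2 and 3), at 0.66 to 0.77 with an edgeR adjusted p of 0.11 to 0.15. EEF1AKMT2, another of these enzymes, stood at 2.25, 3.08 and 2.13 CPM in HEK293T SNRPD2KO, against 4.29, 4.0 and 5.23 in Ctrl. In HuCCT1 it stood at 4.13, 2.97 and 3.5 CPM in SNRPD2KO, against 2.22, 3.11 and 2.39 in Ctrl, and did not pass. It fell in HEK293T SNRPD2KO, at -0.86 ± 0.27 (edgeR adjusted p = 0.013), a call that ended when any of 2 libraries was left out in turn (HEK293T SNRPD2KO replicate 3 and HEK293T Ctrl replicate 3), at -0.73 with an edgeR adjusted p of 0.056 to 0.058. That EEF1AKMT2 call also ended with the GC trend removed. EEF2K, the kinase that switches eEF2 off, was low, at 5.15, 2.31 and 3.07 CPM in HEK293T SNRPD2KO, against 0.965, 1.6 and 2.61 in Ctrl. These groups overlapped. Its change was 1.02 ± 0.36 (edgeR adjusted p = 0.025), and the EEF2K call ended when any of 3 libraries was left out in turn (HEK293T SNRPD2KO replicate 1 and HEK293T Ctrl replicate 1 and 2), at 0.68 to 0.98 with an edgeR adjusted p of 0.067 to 0.15. Removing the GC trend ended the EEF2K call as well.

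The SNRPD2KO changes of both lines, from the separate fit of each line, were then compared, and the lines share no control. Of 56 genes tested in both lines, 8 rose in both, or 14.3%, where 12.6% of 12708 genes did. These were EIF2B2, EIF2B3, EIF2B4, EIF2B5, EIF2D, EIF3B, EIF4EBP2 and EIF4G3. Lower in both were 12 genes, or 21.4%, where 11.6% of all genes were: EEF1E1, EIF2S1, EIF2S3, EIF2S3B, EIF3J, EIF4E, EIF4E2, EIF4ENIF1, EIF4G2, EIF5, EIF5A2 and EIF5AL1. Lower in HuCCT1 and higher in HEK293T were 7 genes, or 12.5%, where 5.54% of all genes were: EEF1AKMT4, EIF1, EIF3F, EIF3G, EIF3M, EIF4EBP1 and EIF6. The reverse held for EIF3E and EIF5B, or 3.57%, where 6.49% of all genes did so. With the GC trend removed in both fits, an alternative added after the values were seen, 9 genes were lower in both lines, or 16.1%, where 13% of all genes were, and 8 were higher in both, or 14.3%, where 11.9% were. The HEK293T calls of EEF1E1, EIF2S1, EIF3J, EIF4E, EIF5A2, EIF2B4 and EEF1AKMT4 ended there, so these genes left their groups, and EIF3E left the reverse group. Lower in HuCCT1 and higher in HEK293T were then 8 genes, or 14.3%, where 5.08% of all genes were. Of these genes, EIF2B3, EIF2B4, EIF3E, EIF3J, EIF5A2, EEF1E1 and EEF1AKMT4 had a call that ended when some library was left out, as given above. In HEK293T the EIF3M call ended when any of 4 libraries was left out in turn (HEK293T SNRPD2KO replicate 1 and 2 and HEK293T Ctrl replicate 1 and 2), at 0.17 to 0.23 with an edgeR adjusted p of 0.063 to 0.14. The EIF2S3B call there ended when HEK293T SNRPD2KO replicate 2 was left out, at -0.48 with an edgeR adjusted p of 0.059. For EIF5AL1 in HEK293T SNRPD2KO the call ended when any of 7 libraries was left out in turn (HEK293T SNRPD2KO replicate 1 and 3, HEK293T PUS7KO replicate 1 and 3 and HEK293T Ctrl replicate 1, 2 and 3), at -0.40 to -0.28 with an edgeR adjusted p of 0.055 to 0.17.

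The difference between the lines was tested directly, as the change in HuCCT1 minus the change in HEK293T. Of 58 genes, 5 had a higher and 27 a lower value in HuCCT1, or 55.2%, where edgeR's quasi-likelihood test called 40.7% of all 17617 genes, 19.8% higher and 20.9% lower. EIF4EBP1 had a difference of -2.03 ± 0.11 (edgeR adjusted p = 4.4e-10) and EEF1AKMT4 of -2.03 ± 0.35 (edgeR adjusted p = 0.00013). EIF6 followed at -1.46 ± 0.13 and EIF1 at -1.32 ± 0.09 (edgeR adjusted p = 1.1e-07 and 1.2e-08). On the higher side EIF5B had 1.54 ± 0.18, EEF1AKMT2 1.27 ± 0.34, EIF4G3 0.99 ± 0.12 and EIF5 0.70 ± 0.10 (edgeR adjusted p = 2.1e-06, 0.0061, 5.8e-06 and 3.6e-05). EIF5 fell in both lines, and by less in HuCCT1. EIF2D rose in both and by less in HuCCT1, with a difference of -0.39 ± 0.11 (edgeR adjusted p = 0.0069). In eIF3, 7 of 13 genes had a lower and 1 a higher value in HuCCT1, and in eIF2B 3 of 5 had a lower value, of which the EIF2B5 call ended when any of 5 libraries was left out in turn (HEK293T SNRPD2KO replicate 1, HEK293T Ctrl replicate 2 and 3, HuCCT1 SNRPD2KO replicate 1 and HuCCT1 Ctrl replicate 2), at -0.39 to -0.34 with an edgeR adjusted p of 0.054 to 0.073. The higher value in eIF3 was that of EIF3E, which turned to -0.31 with the GC trend removed (edgeR adjusted p = 0.015). No value is given for EIF5A, which was listed at 0 in HEK293T. The EEF1AKMT2 call held when each library was left out in turn, and ended with the GC trend removed, at 0.59 (edgeR adjusted p = 0.19).

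**Figure D3:**
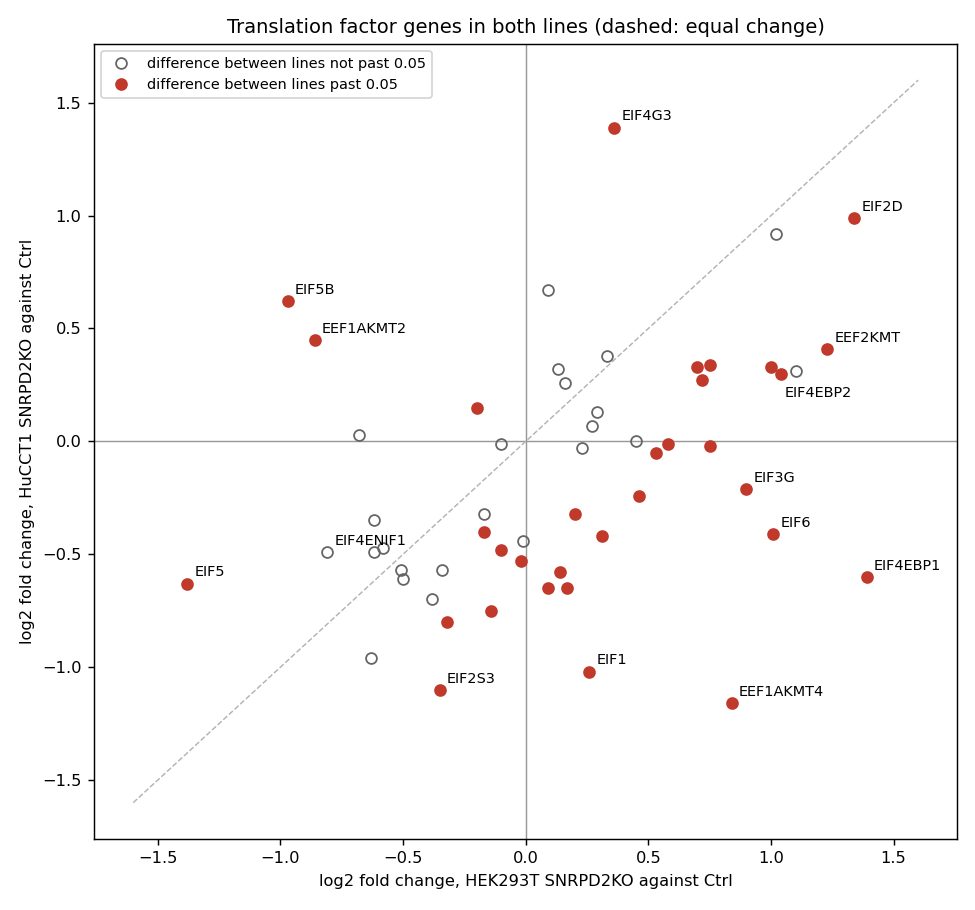
Log2 fold change of SNRPD2KO against Ctrl in HEK293T (horizontal axis) and in HuCCT1 (vertical axis), 1 point per gene tested in both lines, filled where the difference between the lines passed an edgeR adjusted p of 0.05, without EEF1D. EIF4EBP1 (-0.60 in HuCCT1 and 1.39 in HEK293T) and EIF1 (-1.02 and 0.26) lie in the lower right, EIF5B (0.62 and -0.97) in the upper left, and EIF2D (0.99 and 1.34) in the upper right.

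Promoter sequences of 4 genes are shown as examples: EIF2D and EIF2B2, called higher in both lines, EIF4E, called lower in both, and EIF1, which went opposite ways. The share of the 56 genes higher in both was near that of all genes, at 14.3% and 12.6%. The HEK293T calls of EIF4E ended with the GC trend removed. Each is the 200 bases before the RefSeq start on build GRCh38.p14, read 5′ to 3′ on the gene's strand: EIF2D on chr1:206612466-206612665 (minus strand), EIF2B2 on chr14:75002721-75002920 (plus), EIF4E on chr4:98929134-98929333 (minus) and EIF1 on chr17:41688685-41688884 (plus). Capitals mark matches, on either strand, to 4 motifs: CACGTG, the E-box of Myc and related factors, CCGGAAG, of the ETS family, CCAAT, of NF-Y, and TGATGNAA, of ATF4-type elements.
EIF2D: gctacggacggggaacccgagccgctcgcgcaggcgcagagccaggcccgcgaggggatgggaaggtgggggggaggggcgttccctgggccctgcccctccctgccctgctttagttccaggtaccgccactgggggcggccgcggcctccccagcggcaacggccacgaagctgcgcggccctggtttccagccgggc
EIF2B2: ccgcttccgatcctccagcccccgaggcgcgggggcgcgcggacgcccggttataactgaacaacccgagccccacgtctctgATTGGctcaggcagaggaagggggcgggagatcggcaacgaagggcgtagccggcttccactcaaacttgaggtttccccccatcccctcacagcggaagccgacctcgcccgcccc
EIF4E: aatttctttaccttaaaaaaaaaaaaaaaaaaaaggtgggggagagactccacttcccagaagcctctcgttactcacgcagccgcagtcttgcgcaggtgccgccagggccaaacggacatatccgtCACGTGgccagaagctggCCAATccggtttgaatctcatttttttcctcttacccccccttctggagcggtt
EIF1: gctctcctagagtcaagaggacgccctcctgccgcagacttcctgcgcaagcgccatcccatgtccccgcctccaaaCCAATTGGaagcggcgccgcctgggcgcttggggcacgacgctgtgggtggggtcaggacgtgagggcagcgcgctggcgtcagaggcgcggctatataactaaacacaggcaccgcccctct
EIF4E held an E-box and a CCAAT box, EIF2B2 a CCAAT box on the other strand, and EIF1 overlapping CCAAT boxes on both strands, while EIF2D held none of the 4 in the bases shown. RefSeq promoters of 300 bases, from 250 before to 50 after the start, were matched for 48 of the 61 genes. CACGTG stood in 12 of them, or 25%, where 7.3% of all 35116 promoters held it, and CCGGAAG in 12, or 25%, where 10.3% did. CCAAT stood in 17, or 35.4%, where 34.6% of all did, and TGATGNAA in 0, where 3.6% did. The 48 genes entered with a single promoter each, while the 35116 were not limited to a single promoter per gene or to genes tested here. The shares are therefore on unlike sets, and their difference was not tested. The 12 genes with CACGTG included genes that rose in HEK293T SNRPD2KO, such as EIF2B3, and genes that fell, such as EIF4E, and a match is no more than letters in a window.

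Some libraries stood apart from their own group. EEF1D, the exchange factor of eEF1A, stood at 91.6, 6.38 and 7.51 CPM in HEK293T SNRPD2KO, at 7.74, 94.2 and 25.2 in PUS7KO and at 64.4, 6.74 and 8.3 in Ctrl. The HuCCT1 values were 1.78, 2.26 and 1.65 CPM in SNRPD2KO and 21.8, 1.65 and 2.17 in Ctrl. A single library was high in every HEK293T group and in HuCCT1 Ctrl, 3.74-fold to 12.2-fold above the next. EEF1D passed in HuCCT1 at -2.17 ± 0.82 (edgeR adjusted p = 0.04), and without Ctrl replicate 1 the change was 0.00 (edgeR adjusted p = 1). The call also ended when any of the 3 SNRPD2KO libraries was left out, at -2.31 to -2.07 (edgeR adjusted p = 0.081 to 0.1). EIF3C and EIF3CL are nearly identical copies of an eIF3 subunit gene, so their counts are uncertain. In HuCCT1 EIF3C stood at 78.4, 26.8 and 50.5 CPM in SNRPD2KO, against 62.1, 113 and 35.2 in Ctrl, with libraries apart in both groups, and EIF3CL at 3.73, 13.9 and 4.96 CPM in SNRPD2KO, against 6.8, 5.24 and 6.13 in Ctrl, where SNRPD2KO replicate 2 was 2.8-fold above the next library. EIF3CL stood at 41.2, 37.3 and 68.7 CPM in HEK293T SNRPD2KO and 33.2, 41.4 and 35.3 in PUS7KO, against 19.1, 15.6 and 34.5 in Ctrl. EIF3C stood at 45.4, 62.1 and 49.7 CPM in SNRPD2KO and 57.8, 56.8 and 74.4 in PUS7KO, against 46.2, 76.6 and 35.2 in Ctrl. Within Ctrl the high library was replicate 2 for EIF3C and replicate 3 for EIF3CL. Their sum was 86.6, 99.4 and 118 CPM in SNRPD2KO and 91, 98.2 and 110 in PUS7KO, against 65.3, 92.2 and 69.8 in Ctrl, so that SNRPD2KO and PUS7KO each overlapped Ctrl. EIF3CL alone passed, with overlapping groups in PUS7KO, at 1.10 ± 0.24 in SNRPD2KO and 0.67 ± 0.24 in PUS7KO (edgeR adjusted p = 0.001 and 0.03). The EIF3CL call in PUS7KO ended when any of 3 libraries was left out in turn (HEK293T PUS7KO replicate 2 and HEK293T Ctrl replicate 1 and 2), at 0.46 to 0.58 with an edgeR adjusted p of 0.081 to 0.15.

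**Figure D4:**
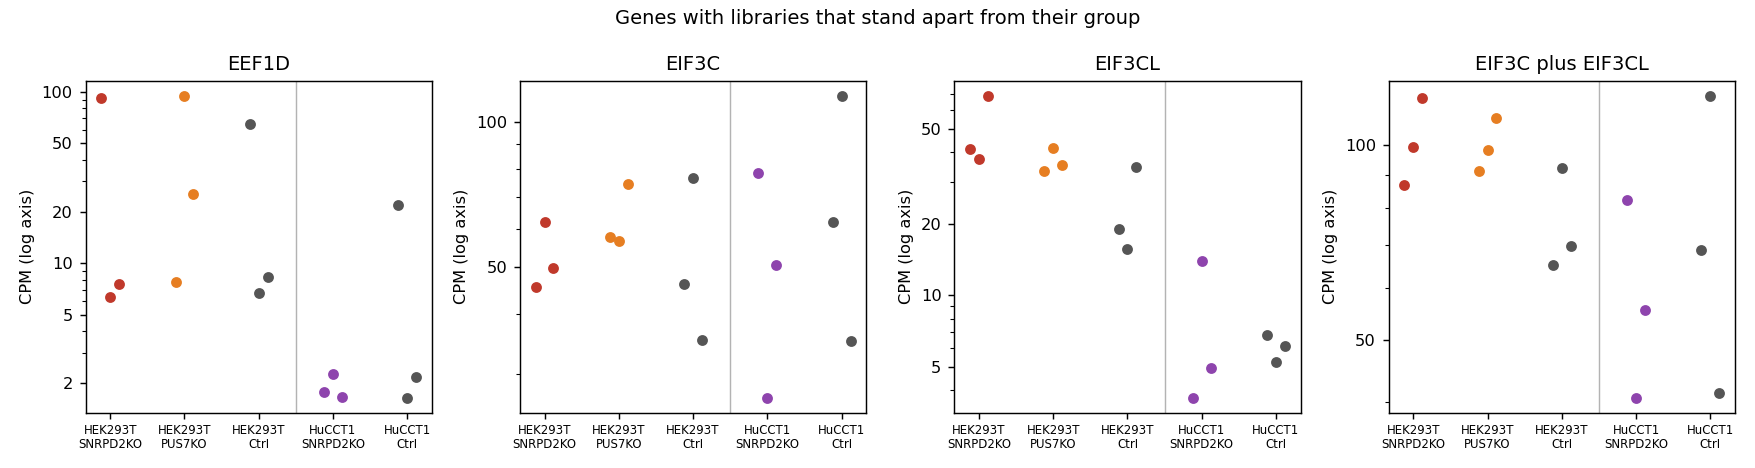
CPM in every library (points, log axis) of EEF1D, EIF3C, EIF3CL and the sum of EIF3C and EIF3CL, for HEK293T SNRPD2KO, PUS7KO and Ctrl and for HuCCT1 SNRPD2KO and Ctrl. EEF1D has a single library at 91.6 CPM in HEK293T SNRPD2KO, at 94.2 in PUS7KO, at 64.4 in HEK293T Ctrl and at 21.8 in HuCCT1 Ctrl.

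Levels were compared between genes per kilobase of exon, from the Ctrl libraries. By the length of all exons of a gene joined, the HEK293T order ran from EEF1A1 (2069 ± 72 CPM per kilobase, SD, n = 3) and EEF2 (932 ± 30.7) to EIF3I (223 ± 13.2), EIF4B (153 ± 3.55), EIF1 (144 ± 5.33) and EIF2S3 (143 ± 6.91). EIF1 and EIF2S3 did not differ beyond their spread. In HuCCT1 it ran from EEF1A1 (968 ± 47.5), EEF2 (695 ± 21.4) and EIF1 (565 ± 7.5) to EIF4H (207 ± 2.78), EIF6 (205 ± 6.27) and EIF4G1 (179 ± 4.1). EIF4H and EIF6 did not differ beyond their spread. The order below the top depends on the length used: by the longest transcript, EIF3E was 4th in HEK293T, at 232.2 CPM per kilobase, above EIF4B at 226.7 and EIF1 at 223.6. By that length EIF4G1 was 4th in HuCCT1, at 261.2, above EIF6 at 259.2 and EIF4H at 246.5. The modifiers EEF2K and EEF1AKMT2 and the relative EIF5A2 lay at the low end in HEK293T, at 0.215 ± 0.104, 1.07 ± 0.152 and 1.2 ± 0.111. The tables of the lines are separate, and levels across them are set side by side only.

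Changes in HEK293T moved with the GC content of the transcripts. Of the genes called in SNRPD2KO against Ctrl, the higher ones had a median GC content of 50% and the lower ones of 39.1%. Across the 56 genes, Spearman's rho between GC content and log2 fold change was 0.60, where it was 0.36 across all genes tested. It was 0.44 for PUS7KO, where all genes gave 0.18. In HuCCT1 it was 0.02, where all genes gave -0.02. Genes are not independent replicates, libraries are shared, and the part of GC content in the changes was not tested. With a GC trend removed from each library, 25 genes rose and 11 fell in HEK293T SNRPD2KO, a share of 69.4% higher among those called, against 59.0% without that step. These were not all the same genes as before. Calls ended or turned sign for EEF2K, EIF3J, EIF3E, EIF2B4, EEF1E1, EIF2S1, EIF4E, EIF5A2, EIF1AX, EEF1AKMT2 and EEF1AKMT4, and 7 calls were gained.

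**Figure D5:**
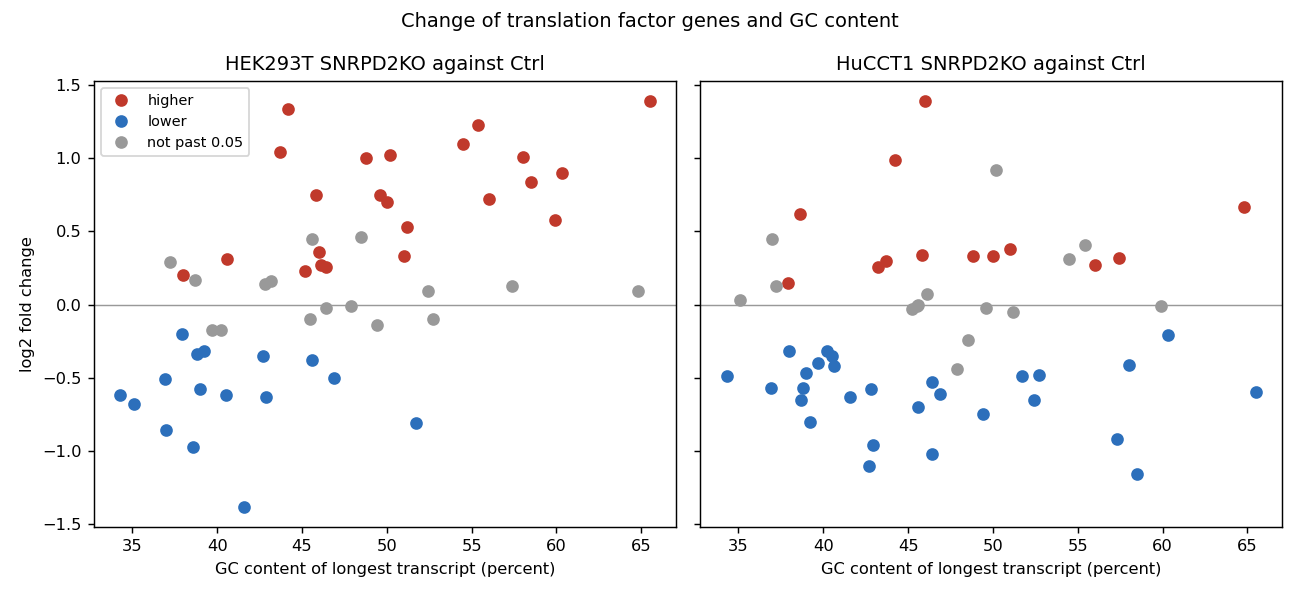
Log2 fold change of each tested gene (vertical axis) against the GC content of its longest transcript in percent (horizontal axis), for SNRPD2KO against Ctrl in HEK293T (left) and HuCCT1 (right), coloured by edgeR call, without EEF1D. In HEK293T the higher genes had a median GC content of 50% and the lower ones of 39.1%, and in HuCCT1 46% and 42.9%.

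Other genes of the pathway were read from lists chosen with earlier results of these data known, and their counts are to be read beside the 53.3% of all genes called in HEK293T SNRPD2KO, 49.4% in PUS7KO and 57.2% in HuCCT1, about evenly split between directions. Of 7 tested genes of termination and ribosome recycling, none rose and 2 fell in HEK293T SNRPD2KO, 1 rose and none fell in PUS7KO, and none rose and 5 fell in HuCCT1. In HuCCT1 PELO, which rescues stalled ribosomes, had -1.27 ± 0.06, and the release factor gene GSPT2 -1.08 ± 0.11 (edgeR adjusted p = 6.6e-08 and 6.5e-06). Of 7 genes of hypusine and diphthamide synthesis, which modify eIF5A and eEF2, 5 rose and 1 fell in HEK293T SNRPD2KO, 4 rose and 2 fell in PUS7KO, and 2 rose and 3 fell in HuCCT1. The change was lower in HuCCT1 than in HEK293T for 6 of these 7 by the test of the difference. DPH5, a diphthamide methyltransferase, had 1.46 ± 0.10 in SNRPD2KO, 1.40 ± 0.10 in PUS7KO and 0.37 ± 0.10 in HuCCT1 (edgeR adjusted p = 1.7e-08, 3.6e-08 and 0.0067). DOHH, the last enzyme of hypusine synthesis, had -0.43 ± 0.17, -0.68 ± 0.17 and -1.35 ± 0.09 (edgeR adjusted p = 0.038, 0.003 and 2.7e-07). Of 7 genes around eIF2 phosphorylation, 2 rose and 1 fell in SNRPD2KO, 2 rose and 2 fell in PUS7KO, and 2 rose and 3 fell in HuCCT1. The kinase EIF2AK4 and its activator GCN1 rose in all 3, with 0.50 ± 0.12, 0.49 ± 0.12 and 0.47 ± 0.06 for EIF2AK4 and 0.59 ± 0.07, 0.45 ± 0.07 and 0.72 ± 0.05 for GCN1. PPP1R15B, a phosphatase subunit for eIF2, fell in all 3, with -0.58 ± 0.10, -0.39 ± 0.10 and -0.56 ± 0.07. Of 11 partners of the poly(A) tail and cap, 2 rose and 3 fell in SNRPD2KO, 3 rose and 4 fell in PUS7KO, and 6 rose and 2 fell in HuCCT1. GIGYF1, which partners EIF4E2, rose in HuCCT1, at 1.48 ± 0.10 (edgeR adjusted p = 3e-07), and fell in PUS7KO, at -0.63 ± 0.11 (edgeR adjusted p = 0.00017). Of 8 mitochondrial translation factors, 2 rose and 3 fell in HEK293T SNRPD2KO, 3 rose and 3 fell in PUS7KO, and 3 rose and 4 fell in HuCCT1. TUFM, the mitochondrial counterpart of eEF1A, had 0.81 ± 0.08, 0.65 ± 0.08 and -0.28 ± 0.05 (edgeR adjusted p = 7.1e-07, 9.5e-06 and 0.00065), and the recycling factor gene MRRF -0.62 ± 0.09, -0.84 ± 0.10 and -0.83 ± 0.07. SECISBP2, which guides selenocysteine insertion, rose in PUS7KO (0.36 ± 0.11) and in HuCCT1 (0.47 ± 0.08), and did not pass in SNRPD2KO (0.21 ± 0.11). In bulk libraries, fewer cells that express a gene and less RNA per cell cannot be told apart.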

How the data were processed

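Total RNA of HEK293T and HuCCT1 cells was sequenced after a stranded library preparation with ribosomal RNA depletion, per the labels' protocols. The deposited values are raw counts per gene, 1 table per line, for which the submitters' processing notes name cutadapt 4.2, HISAT2 2.2.1, RSEM and the build hg38. Whether the counting used strand is not given in the sources used here. Counts were fitted with edgeR 4.0.16 in R 4.3.3: TMM scaling, filterByExpr (minimum count 10, total 15), a quasi-likelihood test and Benjamini-Hochberg adjustment over all genes tested, at 0.05. All 9 HEK293T libraries entered 1 fit and all 6 HuCCT1 libraries another, and the difference between lines was an interaction in a fit of 12 libraries. Standard errors are the log2 fold change over the root of its F statistic. A count of 0 allows up to 3 counts, or 0.266 to 0.378 CPM in HEK293T and 0.179 to 0.218 in HuCCT1, for counting error only. Levels per length used GENCODE exons. The code of the fits was run on simulated counts with set changes. Those counts held no GC trend and no library that stands apart, so that run says nothing on either. Alternatives covered scaling, filter, DESeq2 1.42.0, protein-coding genes, GC content, a replicate block and each library left out. The members, gene lists and tests were chosen with earlier results of these data known. Genes named first were the 4 with the largest change in each direction among those past the threshold whose groups did not overlap, and pathway genes were among the 4 with the smallest p of their list; further genes were named by role. Counts of near-identical copies are uncertain.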

Additional observations from a re-analysis of the deposited data

Results flagged for a closer look

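The change in SNRPD2KO libraries differed between HuCCT1 and HEK293T, past a test of the difference itself (edgeR's quasi-likelihood test, Benjamini-Hochberg), for 32 of 58 genes. Values are the log2 change in HuCCT1 minus that in HEK293T. Among the genes grouped here under start codon choice and tRNA delivery, EIF5B had 1.54, EIF5 0.70, EIF1 -1.32, EIF1B -0.76 and EIF1AD -0.66. EIF2S3 had -0.79, EIF2S1 -0.53, EIF2D -0.39 and EIF2A -0.28. In eIF2B, EIF2B3 had -0.71, EIF2B2 -0.45 and EIF2B5 -0.41. In eIF3, EIF3G had -1.16, EIF3L -0.82, EIF3F -0.78, EIF3D -0.78, EIF3I -0.62, EIF3M -0.57, EIF3B -0.49 and EIF3E 0.31.

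Among the cap factors and their repressors, EIF4EBP1 had -2.03, EIF4EBP2 -0.78, EIF4G3 0.99, EIF4A2 -0.86, EIF4B -0.55 and EIF4H -0.42. EIF6 had -1.46 and EEF2 -0.63. Among the modifying enzymes, EEF1AKMT4 had -2.03, EEF1AKMT2 1.27, EEF2KMT -0.86 and EEF1AKMT3 -0.74. The EEF2KMT difference ended when HuCCT1 Ctrl replicate 3 was left out, at -0.66 with an edgeR adjusted p of 0.06. The EEF1AKMT3 difference ended when any of 7 libraries was left out in turn (HEK293T SNRPD2KO replicate 2, HEK293T Ctrl replicate 1, 2 and 3, HuCCT1 SNRPD2KO replicate 1 and 3 and HuCCT1 Ctrl replicate 2), at -0.78 to -0.52 with an edgeR adjusted p of 0.058 to 0.15. The EIF2A difference ended when any of 7 libraries was left out in turn (HEK293T SNRPD2KO replicate 3, HEK293T Ctrl replicate 1 and 3, HuCCT1 SNRPD2KO replicate 2 and 3 and HuCCT1 Ctrl replicate 1 and 3), at -0.28 to -0.23 with an edgeR adjusted p of 0.057 to 0.086. With the GC trend removed, 5 of these differences no longer passed edgeR's test: EIF4H at -0.25 (adjusted p = 0.056), EEF2KMT at -0.69 (adjusted p = 0.056), EEF1AKMT3 at -0.66 (adjusted p = 0.068), EIF2B5 at -0.30 (adjusted p = 0.073) and EEF1AKMT2 at 0.59 (adjusted p = 0.19). That of EIF3E turned to -0.31 (adjusted p = 0.015). The counts of the lines stand in separate tables, so the line and its table cannot be told apart. The share of counts in protein-coding genes also differed between these tables, as given above.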

How the results depend on the processing

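Of the calls made, 24 of 39 in HEK293T SNRPD2KO, 24 of 35 in PUS7KO, 0 of 2 between SNRPD2KO and PUS7KO, 37 of 42 in HuCCT1 and 25 of 32 between the lines held in every alternative at 0.05. With each library left out in turn, the genes higher ran from 19 to 23, 20 to 24, 0 to 5, 10 to 13 and 5 to 7, and the genes lower from 12 to 16, 8 to 12, 0 to 3, 27 to 29 and 24 to 28, in the same order. In PUS7KO the 11 lower genes became 6 with no filter on low counts and 7 at an adjusted p of 0.01. Between SNRPD2KO and PUS7KO the 2 higher genes became 5 with no filter, 4 with DESeq2, 4 with protein-coding genes only, 0 with the GC trend removed, 1 with only the 2 groups fitted and 0 at an adjusted p of 0.01, and the lower genes, 0 as reported, became 3 with no filter and 2 with DESeq2. With no filter the median of all genes moved to -0.19 in HEK293T SNRPD2KO, -0.14 in PUS7KO and -0.08 in HuCCT1.

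With the GC trend removed, changes turned sign in HEK293T SNRPD2KO for EEF1A2 (-0.30), EIF3J (0.05), EIF3E (0.26), EIF2S1 (0.04) and EIF5A2 (0.04), and in the difference between lines for EIF3E (-0.31), EIF4E (-0.46) and EIF5A2 (-0.80). EIF1AX in HuCCT1 ran from -0.25 to 0.17 with each library left out. The cause was not tested.

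With the replicate number as a block, 22 genes were higher and 14 lower in HEK293T SNRPD2KO, 24 and 10 in PUS7KO, 1 and 0 between these, 12 and 28 in HuCCT1 and 7 and 28 between the lines. Correlations of deviations between same-numbered libraries, over 12 pairs, ran from -0.086 to 0.044, and so showed no pairing by number. HEK293T SNRPD2KO replicate 3 and PUS7KO replicate 2, which differ in number, gave 0.127. Such correlations cannot settle whether libraries were handled together. Leaving out EEF1D, EIF3C and EIF3CL, chosen after seeing the data, gave 22 and 16, 23 and 11, 2 and 0, 13 and 28, and 5 and 27. Depth limits low genes, such as the modifying enzymes, at under 21 CPM.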
